A study of Etroplus suratensis with 2 samples.

Results

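The contigs described here had at least 100 reads in the male pool of *Etroplus suratensis* and exactly 0 reads in the female pool. They were chosen by those counts alone, and 148 of the 96646 assembled contigs met the rule. *Etroplus suratensis*, the green chromide or pearlspot, is a cichlid fish of brackish water. RNA came from 1 male pool, which held brain, liver, kidney, spleen, muscle and testis, and from 1 female pool, which held the same first 5 organs and ovary. No strain, age or treatment, number of fish or organ proportion is given in the sources used here, and the pools differ in sex as well as in the gonad they hold. With 1 library per sex there is no replicate error, so no test was run and every difference is one between 2 libraries.

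A contig is a stretch of transcript pieced together from overlapping reads without a genome. The assembler Trinity groups contigs that share sequence into a component, and the last number of a contig name separates what it takes to be genes within one. Close gene copies can therefore fall into different contigs of 1 component, and so at times can alleles or fragments of a single transcript. The testis is known in many vertebrates for transcribing a broad range of genes, including ones used only in the making of sperm, and the ovary stores RNA in growing oocytes. In cichlids, as in other fish, sex-determining genes differ between lineages. The table pairs no contig with a gene name, a description or a sequence, so none is assigned a function or an organ here. In pooled tissue, fewer cells of a type and less RNA per cell cannot be told apart, and neither can be told from a smaller share of an organ in the pool.

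Summed over the table, the male counts came to 19788173 and the female counts to 24649400. Against these totals the 148 contigs were a small group of modest abundance. Together they held 42437 male reads, or 0.214% of male counts (95% Wilson interval 0.212 to 0.217, counting error only). They made up 0.217% of all assembled bases. By FPKM, in which the authors related each count to the length of its contig and to the size of its library, they held 0.473% of the summed male FPKM. Among the 19265 contigs with at least 100 male reads, 0.768% had no female read. Of the 36872 contigs whose scaled counts averaged 10 or more over both pools, the set was 0.401%. The choice of contigs used this contrast, so these shares are descriptions only.

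Male reads per contig ranged from 100 to 1532, with a median of 183.5 and quartiles of 130 and 358.5. Of the 148 contigs, 80 had 100 to 199 male reads, 44 had 200 to 499, 21 had 500 to 999 and 3 had at least 1000. The 24 contigs with at least 500 reads held 42.5% of the male reads of the whole set. The share of contigs without a female read fell with male depth. It was 1.49% of the contigs with 100 to 199 male reads, 0.653% at 200 to 499, 0.564% at 500 to 999 and 0.0874% at 1000 or more.

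The male FPKM of the contigs ran from 1.83 to 158, with a median of 9.44 and quartiles of 5.17 and 20.6. All 148 had a male FPKM above 1, 73 reached 10 and 10 reached 50. Other contigs with at least 100 male reads had a median male FPKM of 7.22, with quartiles of 4.25 and 13.9. At like length the set mostly had the lower median. It was 25.7 against 26.2 at 200 to 499 bases and 11.4 against 12.5 at 500 to 999. At 1000 to 1999 bases it was 5.70 against 8.01, and at 2000 to 3999 bases 4.88 against 5.83. The 4 contigs of 4000 bases or more went the other way, 8.35 against 5.82. FPKM fell with length within the set (Spearman's rho across the 148 contigs -0.74), which the read minimum partly fixes, since 100 reads on a short contig already give a high FPKM. Reads themselves had a rho of 0.21 with length. Contigs are not independent replicates, and both relations are descriptions. The plot of male reads against length shows contigs with at least 500 reads among both short and long ones. The median length was 909.5 bases at 100 to 199 male reads and 1629 bases at 500 to 999.

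**Figure D1:**
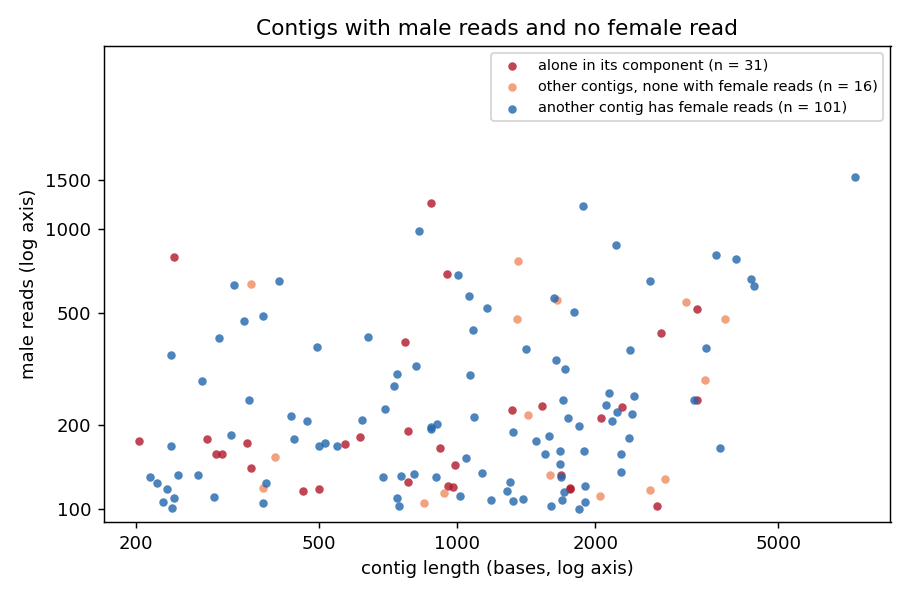
Male reads against contig length for the 148 contigs with at least 100 male and 0 female reads, both on log axes, with 1 point per contig coloured by what else its Trinity component holds. Read numbers run from 100 to 1532, and the 31 contigs that are alone in their component lie among the others.

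TRINITY_DN15943_c0_g1 had the most male reads of the set. It was 7329 bases long with 46.1% GC and had 1532 male reads against 0 female reads, a male FPKM of 10.1 against a female FPKM of 0. A count of 3 female reads, the floor set here for a count of 0, would be 0.0166 FPKM in the female library on this contig. That value takes the female column sum as library size. The deposited FPKM rest on a somewhat larger total, on which the floor would be slightly lower. It was also the longest of the set. Its component held 1 further contig, which was 5247 bases long with 42.6% GC and had 1701 male reads against 555 female reads, or 15.7 against 4.15 FPKM. Female reads were thus present in the component and were all counted on the other contig.

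TRINITY_DN15206_c0_g1 had the highest male FPKM. It was 243 bases long with 41.2% GC and had 795 male reads against 0 female reads, a male FPKM of 158 against a female FPKM of 0. Its component held no other contig. On so short a contig the floor of 3 female reads corresponds to 0.501 FPKM, again by the column sum. The female level is thus less tightly bounded here than on the long contig above.

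The next contigs by male reads differed widely from each other. The second had 1242 male and 0 female reads over 877 bases, or 68.6 against 0 FPKM, and stood alone in its component. The third had 1212 male and 0 female reads over 1877 bases, or 31.3 against 0 FPKM, and its component held 8 further contigs with 4530 male and 1628 female reads. The fourth had 984 male and 0 female reads over 825 bases, or 57.7 against 0 FPKM. It belonged to a component of 16 contigs, and the other 15 held 99084 male and 25010 female reads. High male counts without a female read therefore occurred both in sole contigs of a component and in ones that were a minor part of an abundant component. Components whose names share the DN number come from a common larger group of the assembler, and on that wider grouping the second contig had 14 relatives with 6921 male and 6355 female reads, while TRINITY_DN15206_c0_g1 had none.

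Because the female count was 0 in each contig, the fold between the pools has only a lower bound. This bound was computed against a floor of 3 counts in the female library. It holds at that floor and is not a strict limit, since the contigs were picked for their 0 female reads. The counts were scaled by a median of ratios, as DESeq does, which set the size of the male library to 2 times that of the female one. This median was taken over the 74970 contigs with reads in both pools, with no read minimum. Over the 5141 contigs averaging 1000 scaled counts or more the ratio was 0.496, so the abundant contigs put the larger size on the female side. The lowest of the 148 bounds put a contig at least 16.7-fold higher in male tissue, with a median bound of 30.6-fold and a highest bound of 255-fold. With total counts as the scale the size ratio was 0.803, and the lowest, median and highest bounds were 41.5-fold, 76.2-fold and 636-fold. TRINITY_DN15943_c0_g1 was at least 255-fold higher by the median of ratios and at least 636-fold higher by total counts. For TRINITY_DN15206_c0_g1 the bounds were 132.5-fold and 330.1-fold. At an equal level in both pools, a contig with 100 male reads would have 50 female reads by the median of ratios and 124.6 by total counts. Going from the median of ratios to total counts therefore moved the bounds by more than 1.5 times, the median from 30.6-fold to 76.2-fold. No scaling could change a direction, since the rule requires 0 female reads. The lowest bound belonged to a contig with 100 male reads, so it follows from the read minimum, the floor and the scaling.

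The edges of the rule cut through a continuous range on the male side. Just inside it lay contigs with 100, 101 and 103 male reads and no female read, with male FPKM values of 2.63 on 1843 bases, 20.4 on 240 bases and, at 103 reads, 1.83, 3.12 and 6.66. Just outside lay 2 contigs with 99 male reads, at 3.79 and 2.65 FPKM, and 2 with 97, at 19.0 and 3.87 FPKM. On the female side the number of contigs was highest at 0. Of contigs with at least 100 male reads, 148 had 0 female reads, 83 had 1, 59 had 2 and 32 had 3. From 3 to 20 female reads the number per step lay between 27 and 54. The bar plot of contigs by female reads shows a peak at 0 that declines over the next steps to this level.

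**Figure D2:**
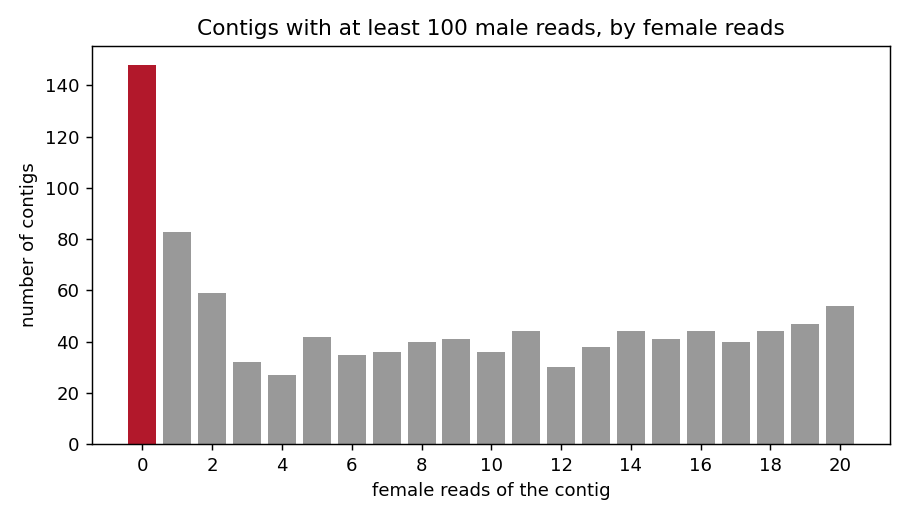
Number of contigs with at least 100 male reads (vertical axis) at each female read count from 0 to 20 (horizontal axis), with the contigs described here in red. The number is 148 at 0 female reads, 83 at 1 and 59 at 2, and lies between 27 and 54 from 3 to 20.

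The contigs were short against others with at least 100 male reads, but not against the whole assembly. The shortest of the set had 204 bases and the longest 7329. The median was 1076.5 bases with quartiles of 501.5 and 1842. In the other 19117 contigs with at least 100 male reads the median was 2532, with quartiles of 1512 and 3946. Over all 96646 contigs it was 372, with quartiles of 255 and 918. Of the 148, 36 were under 500 bases and 79 reached 1000 bases. Length rises with read number in the other contigs (rho 0.44), so the groups were also set side by side at like depth. At 100 to 199 male reads the median length was 909.5 bases in the 80 contigs described here and 1667 in the 5297 others. At 200 to 499 reads it was 1384 against 2548 bases, and at 500 to 999 reads 1629 against 3503.5 bases. The shorter length was seen in each of these depth classes.

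Read the other way, the share of contigs without a female read fell steeply with length. It was 4.10% of contigs of 200 to 499 bases with at least 100 male reads and 1.97% at 500 to 999 bases. It was 1.01% at 1000 to 1999 bases, 0.379% at 2000 to 3999 bases and 0.0860% at 4000 bases or more, where the set had 4 contigs. At equal FPKM a shorter contig draws fewer reads, so length and the chance of a female read are linked by counting as well, and what part of the fall this makes was not tested.

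GC content lay close to that of other contigs, with few values at the high end. The median was 42.9% (quartiles 40.8 and 46.0, range 31.5 to 56.9), against 44.8% (41.6 and 48.1, range 26.9 to 72.7) in the other contigs with at least 100 male reads. The difference was found in the longer contigs. At 2000 to 3999 bases the median GC was 42.6% in the contigs described here and 45.1% in the others. At 200 to 499 bases it was 43.6% against 43.4%, and at 500 to 999 bases 42.4% in both. When all contigs with at least 100 male reads were split into 4 equal classes of GC, those without a female read were 0.997% of the lowest class, 1.06% of the second, 0.644% of the third and 0.374% of the highest, above 48.0% GC. The histograms of length and GC show both groups.

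**Figure D3:**
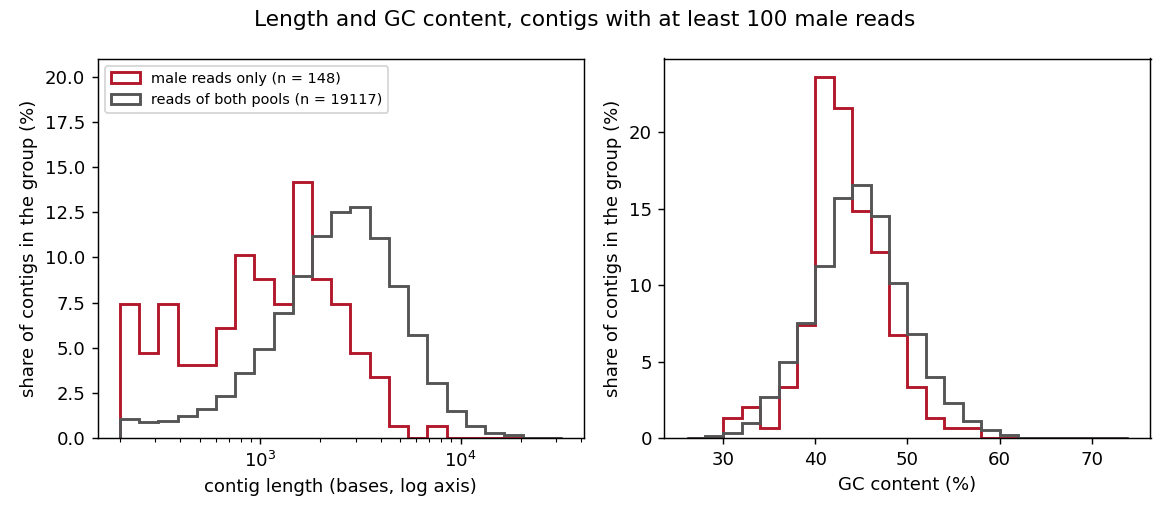
Share of contigs in each group, in percent, by contig length on a log axis (left) and by GC content in percent (right). The 148 contigs with male reads only (red) have a median length of 1076.5 bases and a median GC of 42.9%, and the 19117 contigs with reads of both pools (grey) medians of 2532 bases and 44.8%.

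The 4 base numbers of each contig allow a further description that the rule did not use. AT skew is the number of A minus the number of T over their sum, and GC skew is the same for G and C. A value of 0 means that both bases of a pair are equally frequent on the strand written down, as is approximately so in long stretches of genomic DNA. The absolute AT skew had a median of 0.117 in the 148 contigs and 0.0512 in the other contigs with at least 100 male reads. It exceeded 0.2 in 40 of the 148, or 27.0%, and in 859 of the 19117 others, or 4.49%. Of these 40 contigs, 20 had more A and 20 had more T. Assembled contigs may be written in either direction, and over the whole set 78 had more A and 70 had more T.

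Skew is larger in short contigs, so it was also compared by length. At 200 to 499 bases the median absolute AT skew was 0.161 in the contigs with male reads only and 0.140 in the others, and 38.9% against 31.7% exceeded 0.2. At 1000 to 1999 bases the medians were 0.0897 and 0.0573, and 27.7% against 3.59% exceeded 0.2. At 2000 bases or more the medians were 0.135 and 0.0441, and 7 of 32 contigs, or 21.9%, against 253 of 12007, or 2.11%, exceeded 0.2. The gap was thus small in the shortest contigs and larger in long ones. The most skewed of the long contigs had 2628 bases, 457 of them A and 947 T, an AT skew of -0.35, and 654 male against 0 female reads. The AT skew farthest from 0 in the set was -0.50, in a contig of 502 bases with 70 A and 211 T that had 169 male and 0 female reads.

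The absolute GC skew differed less, with a median of 0.0707 in the set and 0.0425 in the others. At 200 to 499 bases it was lower in the set, 0.0924 against 0.131, and at 2000 bases or more higher, 0.0642 against 0.0362. Across the 148 contigs the AT skew and the GC skew had a Spearman's rho of 0.38, and in the other contigs 0.15. This gap was not seen at every length. The rho was 0.63 against 0.30 at 200 to 499 bases and 0.44 against 0.13 at 1000 to 1999 bases. At 500 to 999 bases it was 0.14 against 0.092, and at 2000 bases or more 0.17 in both. Contigs with female reads only had a rho of 0.30, and of 0.46 at 1000 to 1999 bases. Contigs with at least 100 male reads and 1 or 2 female reads had a rho of 0.42. In contigs with 50 to 99 male and 0 female reads it was 0.37. The relation was thus not particular to the set. The median absolute GC skew of the contigs with 1 or 2 female reads was 0.0893, above that of the set. Which kind of transcript the skewed contigs come from was not analysed here.

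**Figure D4:**
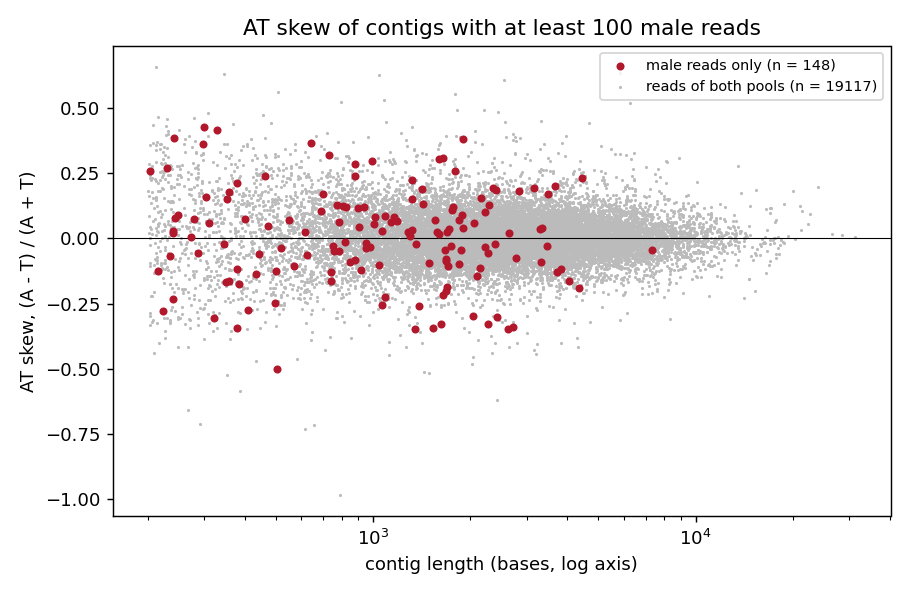
AT skew, which is A minus T over A plus T, against contig length on a log axis for contigs with at least 100 male reads, 1 point per contig. Of the 148 contigs with male reads only (red), 40 lie beyond 0.2 on either side of 0, and of the 19117 with reads of both pools (grey) 859 do.

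Contigs with 50 to 99 male reads and 0 female reads lay below the male minimum of the rule. They were picked by the same 0 female reads, so they extend the description to lower depth and are not an independent look. There were 131 of them, against 5298 contigs of the same male depth with female reads. Their median length was 729 bases, against 1125.5 bases. Their median GC was 43.4%, against 43.1%, so the lower GC of the deeper set was not seen at this depth. Their median absolute AT skew was 0.104, against 0.0697, and 19.1% against 10.4% exceeded 0.2. At 1000 to 1999 bases 7 of 44, or 15.9%, exceeded 0.2, against 95 of 2204, or 4.31%. At 500 to 999 bases 17.4% against 9.98% exceeded it. At 200 to 499 bases the order was the other way, 25.6% against 29.1%, and at 2000 bases or more there were only 2 contigs without female reads, of which 0 exceeded 0.2. The shorter median length was thus present in both depth ranges, and the larger AT skew in both over all lengths and between 500 and 1999 bases. Both ranges come from the same 2 libraries and in part from the same components.

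The 131 contigs with at least 100 female and 0 male reads were the counterpart in the female pool, 0.806% of the 16263 contigs with at least 100 female reads. They held 571925 female reads, or 2.32% of female counts, with a median of 329 and a highest value of 106611 reads. Their median length of 1046 bases was near that of the 148 contigs. Their median absolute AT skew was 0.0686, and 15 of the 131, or 11.5%, exceeded 0.2. By length, 10 of 48 female-only contigs of 500 to 999 bases exceeded it, or 20.8%, where the male-only set had 6 of 33, or 18.2%. At 1000 to 1999 bases 2 of 50 did so, and 0 of 19 at 2000 bases or more, where the male-only set had 13 of 47 and 7 of 32.

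The 148 contigs lay in 121 Trinity components. Of these components 99 held 1 of the contigs, 17 held 2 and 5 held 3, so 49 contigs shared a component with another of the set and are not separate observations. Of the 148 contigs, 31 were the sole contig of their component, or 20.9%, against 28.4% of the other contigs with at least 100 male reads. The component of a contig in the set had a median of 4.5 contigs and at most 17, against a median of 3 contigs in the others.

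Most of the contigs had relatives with female reads. Another contig of the same component had at least 1 female read for 101 of the 148, or 68.2%. For 81 contigs the others of the component had at least 10 female reads in sum, for 66 at least 100 and for 31 at least 1000. The shares at these higher limits around other contigs are not given here. In the other contigs with at least 100 male reads, 70.4% had female reads in another contig of the component, a share near that of the set. Among contigs with any other contig in the component the shares were 86.3% of 117 in the set and 98.4% of 13681 in the others. The label of contigs found in the male pool alone therefore holds for the contig as counted, and for 101 of the 148 not for the component. With 68.2% in the set and 70.4% in the others, having a relative with female reads was not particular to the set.

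For the remaining 47 contigs, or 31.8%, no contig of the component had a female read. This is the complement of the 68.2% above. The other contigs with at least 100 male reads have female reads themselves, so no like share exists for their components. Where a component held further contigs, these had female reads for 86.3% of the set and 98.4% of the others. On the wider grouping by DN number 16 contigs, or 10.8%, lacked female reads in a relative, and 132, or 89.2%, had them. Around the other contigs with at least 100 male reads, 83.0% had female reads in a relative by DN number. By DN number 10 of the 148, or 6.76%, had no relative, against 16.4% of the others. Of the 31 sole contigs below, 21 had a relative by DN number. By component, the 47 contigs were the 31 sole contigs and 16 that had relatives in their component, in 13 components. The 31 sole contigs had 103 to 1242 male reads, with a median of 173, and their median length was 919 bases. The 16 contigs with relatives in their component but no female read in any of these had 105 to 772 male reads, with a median of 186. Their median length was 1511.5 bases. With counts summed per component, 45 components had at least 100 male reads and 0 female reads, which was 0.391% of the 11509 components with at least 100 male reads. They held 13508 male reads in all, and 44 of the 45 contained a contig of the set.

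The contigs with abundant female reads among their relatives are set beside those that stood alone. The 66 contigs whose relatives had at least 100 female reads had a median of 191.5 male reads, a median length of 1031 bases and a median male FPKM of 10.4. The 31 sole contigs had a median male FPKM of 8.69. Median GC was 42.5% in the 66 and 42.1% in the 31. The share with an absolute AT skew above 0.2 was 24.2% in the 66 and 19.4% in the 31, and it was 37.1% in the 35 contigs whose relatives had 1 to 99 female reads.

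The other 420 contigs of the components were set apart from the 148 and counted. Of these, 317 had female reads and 103 had none. They held 461130 male reads, or 2.33% of male counts, against 170014 female reads, or 0.690% of female counts. In the 89 components with such contigs, their summed reads had a median of 740 male and 164 female reads. The male-only contigs held a median of 27.4% of the male reads of these components, with quartiles of 9.91 and 73.6%. They held more than 50% in 32 components and under 10% in 23.

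As counted, the relatives, which include other contigs of the set, lay more to the male side. How many lay to the female side depended on the scaling. For 108 of the 148 contigs the other contigs of the component had at least 20 reads in sum. By the median of ratios the relatives of 43 contigs, or 39.8%, had at least 4 times the female level in the male pool, and those of 8, or 7.41%, had at least 4 times the male level in the female pool. Around the 12916 other contigs with at least 100 male reads and the same minimum, 3.65% were male-higher and 23.0% female-higher. By total counts the shares around the set were 62.0% male-higher and 1.85% female-higher, against 15.3% and 7.05% around the others. With the median of ratios taken over contigs averaging 1000 scaled counts or more, 81 of the 108 contigs had male-higher and 1 had female-higher relatives, against 27.4% and 4.17% around the others. Under all 4 scalings tried, the relatives of 43 of the 108 contigs were male-higher and those of 1 were female-higher. Around the others these shares were 3.65% and 4.17%. A scaling moves all ratios in the same direction, so each of these numbers is the one at the least favourable scaling for that side. The set was chosen on the same 2 libraries, and 49 of its contigs count each other as relatives. Such relatives have no female read by the rule. In a component with 3 contigs of the set, the contigs outside the set had 329 male against 82 female reads. The sums for its 3 contigs were 1248, 1318 and 2017 male reads against the same 82. The contrast with the others is therefore partly fixed by the selection, and no test was made. With all of the 148 left out of the sums, 27 of 80 components lay 4-fold or more to the male side by the median of ratios and 8 lay as far to the female side. By total counts these numbers were 42 and 2, and with the median of ratios over the abundant contigs they were 55 and 1. No like count over components without a male-only contig is given here. The shares around the 12916 others are per contig, so they are not a measure for these component counts.

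**Figure D5:**
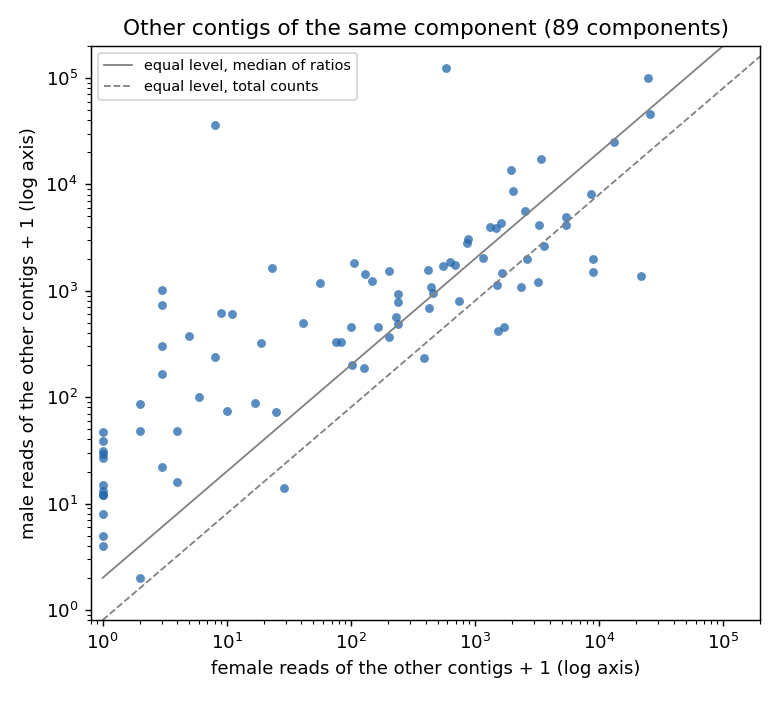
Summed male reads (vertical axis) against summed female reads (horizontal axis) of the other contigs in the 89 components that hold a male-only contig and further contigs, with 1 added to each and both axes on a log scale. The lines mark equal levels by the median of ratios and by total counts. Of the 80 components with at least 20 reads, 27 lie at least 4-fold to the male side of the solid line. No like share over other components is given.

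The largest male signal among the relatives was TRINITY_DN19225_c3_g1, which had 121713 male reads against 20 female reads, or 882 against 0.117 FPKM, over 6683 bases. Its component held 9 contigs, of which 2 belonged to the set. One had 525 male and 0 female reads over 1163 bases, or 21.9 against 0 FPKM, and the other had 318 male and 0 female reads over 1716 bases, or 8.97 against 0 FPKM. Their GC contents of 52.2% and 51.7% lay close to the 52.8% of TRINITY_DN19225_c3_g1 and far above the median of the set. The remaining contigs of the component ran from 41.2% to 58.8% GC. By reads, 1 of these remaining contigs ran the other way, with 90 male and 459 female reads over 4482 bases, or 0.972 against 4.02 FPKM.

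The largest female signal among the relatives was TRINITY_DN17997_c3_g2, which had 21 male reads against 18056 female reads, or 0.347 against 242 FPKM, over 2927 bases. Its log2 ratio of male to female, after adding 0.5 to the scaled counts, was -10.68 by the median of ratios and -9.40 by total counts. The contig of the set in this component had 124 male and 0 female reads over 223 bases, or 26.9 against 0 FPKM. The other 3 contigs of the component had 523, 426 and 415 male reads against 1026, 1636 and 1089 female reads. Contigs without female reads and contigs almost without male reads thus occurred in the same component.

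The 5 components with 3 contigs of the set showed the same range. In one, 4 contigs had 557, 477, 119 and 28 male reads and 0 female reads each, and the first 3 belonged to the set. In the second, contigs of the set with 879, 809 and 110 male reads stood beside 1 contig with 316 male and 82 female reads and 2 with 8 and 5 male reads and no female read. In the third, 3 contigs with 246, 219 and 180 male reads stood beside 6 with 14 to 133 male reads, and the female reads of the whole component numbered 18. In the fourth, 3 contigs with 286, 158 and 130 male reads stood beside 4 others, of which the most read had 131 male and 80 female reads. In the fifth, 3 contigs with 683, 245 and 168 male reads shared a component of 13 contigs with relatives of up to 3060 male and 2237 female reads.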

How the data were processed

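RNA from 1 male and 1 female pool was sequenced after Trizol extraction and TruSeq library preparation, per the labels' protocols. The deposited table gives raw read counts per contig, made by the authors, and the authors' FPKM. It also gives contig length, the number of each base and GC percent, per the file headers. Per the submitters' processing notes, the tools included cutadapt 1.8, Bowtie2 2.2.6 and DESeq 1.16.0, with no role stated. How reads were counted, and how one that fits several contigs was treated, is not given in the sources used here. Such a rule decides whether a read shared by contigs of a component is counted on one, on all or on none, and so bears on counts of 0. The deposited FPKM matched library totals of 20653893 male and 25478638 female reads, above the column sums of 19788173 and 24649400.

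Contigs with at least 100 male reads and 0 female reads were selected, and components were read from the contig names without the last number. Medians, shares and Wilson intervals were computed with Python 3.11.15, pandas 2.3.3 and scipy 1.17.1, and the TMM scaling with edgeR 4.0.16. The code for the selection and the component sums was checked on simulated counts with planted members. That check does not bear on how reliable a count of 0 is in the female library. Intervals and the floor of 3 counts cover counting error only. At most 2 contigs of the set (most male reads, highest male FPKM) and 2 relatives (most female reads, most male reads) are named, since no names are paired with contigs. All other contigs singled out were chosen after their values were seen. The contigs and comparisons were chosen with earlier results of these data known, and the base skew, the AT skew limit of 0.2, the contigs with 50 to 99 male reads and the reads of relatives were added after seeing the data. No test was run, since each sex had 1 library. Alternatives were other read minimums, up to 2 female reads, a length minimum of 500 bases, component sums and 3 other scalings.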

Additional observations from a re-analysis of the deposited data

How the results depend on the processing

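The number of contigs, 148, became 279 with a minimum of 50 male reads, 68 with a minimum of 200, 290 with at most 2 female reads and 45 with counts summed per Trinity component. It was 112 with a length of at least 500 bases. The share of male counts, 0.214%, became 0.260% and 0.158% with minimums of 50 and 200, and 0.513% with at most 2 female reads. As a share of summed FPKM it was 0.473%. The median male FPKM became 6.35 with a minimum of 50 and 13.7 with a minimum of 200, and the median length 887 and 1420 bases. The median fold bound of 30.6 became 76.2 with total counts, and 123 when only contigs averaging 1000 scaled counts or more set the median of ratios. It was 33.1 with TMM. The contigs with female reads elsewhere in the component, 101, became 184 and 49 with minimums of 50 and 200, which is 65.9% and 72.1% of the contigs counted. They were 132 by DN number and 81 when 10 female reads were required. Divided by the contigs with at least 100 male reads, the set was 0.768%, and it was 0.401% of contigs averaging 10 scaled counts or more and 0.153% of contigs with at least 1 count. The read minimums, the female reads allowed and the contigs divided by change these numbers by construction. The median GC lay between 42.7% and 43.2% under each other selection of contigs run on it, and the mean GC weighted by male reads was 43.5%. No paired analysis was possible because each sex had 1 library. The floor of 3 reads set for a female count of 0 is 0.122 CPM, and it is not a strict limit.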

Other observations

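Contigs with at least 100 male reads and 1 or 2 female reads, which lay just outside the set, numbered 142 and held 58997 male reads, or 0.298% of male counts. They reached higher male levels than the set, with 13 contigs at 1000 male reads or more against 3 in the set. The highest had 5972 male reads and 1 female read over 330 bases, or 876 against 0.119 FPKM. The next had 4439 male reads and 1 female read over 1174 bases, or 183 against 0.0334 FPKM. Their median length was 1334.5 bases and their median GC 43.3%. Their absolute AT skew exceeded 0.2 in 18.3%, and in 7 of the 42 contigs of at least 2000 bases. Another contig of the component had female reads for 90 of the 142, and 38 were the sole contig of their component.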
